A study of Mus musculus with 6 samples.

Results

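The 10 genes described here, *Pck1*, *Gk*, *Gpd1*, *Gpd2*, *Aqp7*, *Aqp3*, *Pcx*, *Pdk2*, *Pdk4* and *Slc25a1*, were chosen by name for their roles in glycerol and pyruvate handling in fat, out of 35999 gene symbols with summed counts. All 10 passed the filter on low counts and were among the 16069 genes tested. The RNA came from inguinal white adipose tissue (iWAT) of 10-week-old female mice on the C57BL6/J background, fed freely at the time of collection. Each of the 3 Cebpa_ASKO and 3 Cebpa_fl/fl mice gave 1 library from both inguinal depots, with the lymph nodes removed. Both genotypes carried floxed *Cebpa* alleles, and the Cebpa_ASKO littermates also carried AdipoQ-Cre, whose adiponectin promoter is active in adipocytes, so that other cells of the depot keep the gene. The comparison asks how the RNA of the whole depot differs when C/EBPα, a transcription factor of fat cell differentiation, is removed from adipocytes.

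A fat cell needs glycerol 3-phosphate as the backbone on which fatty acids are esterified to triglyceride. It can make this backbone from glucose, from pyruvate by glyceroneogenesis, or from free glycerol through glycerol kinase (GK), which is scarce in white fat. In glyceroneogenesis, pyruvate carboxylase (PCX) makes oxaloacetate and the cytosolic phosphoenolpyruvate carboxykinase (PCK1) turns it into phosphoenolpyruvate. On the routes from glucose and from pyruvate, the cytosolic glycerol 3-phosphate dehydrogenase GPD1 makes the backbone from dihydroxyacetone phosphate. Glycerol set free by lipolysis leaves through aquaglyceroporins such as AQP7. Pyruvate that enters the mitochondrion is also taken by pyruvate dehydrogenase, which the kinases PDK2 and PDK4 switch off, and the citrate carrier SLC25A1 moves citrate to the cytosol for fatty acid synthesis.

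*Pck1* and *Pcx*, the 2 enzymes that lead from pyruvate to phosphoenolpyruvate, fell in Cebpa_ASKO iWAT to 30.3% and 33.2% of the control level, and no gene of the 10 rose by the test. The other 8 genes were not called, and 6 of these, *Gpd2*, *Pdk4*, *Gpd1*, *Gk*, *Pdk2* and *Aqp3*, had positive fold changes, that of *Aqp3* only 0.01 on the log2 scale and not of 1 sign in every processing. With edgeR's quasi-likelihood test and a Benjamini-Hochberg adjusted p below 0.05 over all genes tested, 2 of the 10 were called lower, beside 3.84% of all genes, and 0 were called higher, beside 1.39% of all genes. At an unadjusted p below 0.05, 3 of the 10 passed, *Gpd2* among them, beside 19.8% of all genes. DESeq2, which called 10.1% of all genes, also had 2 of the 10 lower and 0 higher. The median log2 fold change of the 10 was 0.14, against 0.02 over all genes tested. In normalized CPM, a share of the library's counts that is not scaled for length, the genotypes did not overlap for *Pck1* and *Pcx*, which were lower, and for *Gpd2*, which was higher, while 26.1% of all genes tested did not overlap (13.2% lower and 12.9% higher).

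**Figure D1:**
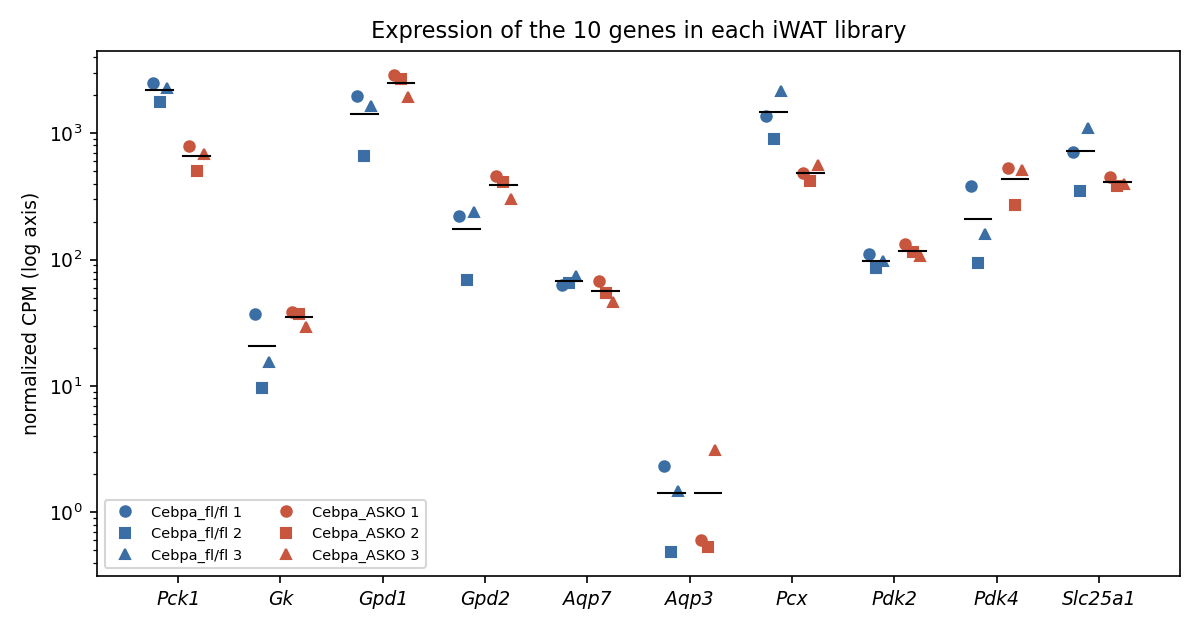
Normalized CPM (log axis) of the 10 genes in each library, with circles, squares and triangles for replicates 1, 2 and 3 of Cebpa_fl/fl (blue) and Cebpa_ASKO (red), and a black line at each mean (n = 3). *Pck1* and *Pcx* are lower in every Cebpa_ASKO library, and Cebpa_fl/fl 2 is the lowest control for 9 of the 10 genes.

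Several facts of the libraries bear on these values. *Cebpa* itself, the targeted gene, was at 204, 238 and 243 TPM in the controls and 17.3, 23.9 and 20.1 TPM in Cebpa_ASKO, so the genotypes matched their labels. The libraries held between 33141769 and 49477671 estimated counts. The RNA is from whole tissue, where fewer cells of a type and less RNA per cell cannot be told apart. The summed CPM of 7 adipocyte markers ranged from 18533 to 21171 in the controls and from 7485 to 9979 in Cebpa_ASKO, with 4 of the 7 called lower, whereas 10 skeletal muscle markers ranged from 583 to 786 and from 1984 to 5584, with 10 of the 10 called higher. Markers of mammary and other epithelium, 8 genes with 0 called by edgeR (7 higher at an unadjusted p below 0.05, 4 by DESeq2), summed to between 780 and 1678 and between 2155 and 2325. Their part in the results was not tested, and the muscle share and the genotype cannot be told apart, since the muscle sums do not overlap. With that share as a covariate no gene was called, and the log2 fold changes of *Pck1* and *Pcx* were -0.82 and -0.51.

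*Pck1* lies on the plus strand at chr2:173153048-173159273 (GRCm38). Its normalized CPM was 2495, 1774 and 2284 in Cebpa_fl/fl and 795, 506 and 683 in Cebpa_ASKO. Every Cebpa_ASKO library was below every control, and the means were 2184 ± 371 and 662 ± 146 CPM (SD, n = 3 each). The log2 fold change was -1.72 with a 95% interval from -2.27 to -1.17 (edgeR's quasi-likelihood test, adjusted p = 0.00918). An exact two-sided permutation test gave p = 0.1, the smallest that 3 against 3 libraries allow. The call held with each library left out in turn, with log2 fold changes between -1.88 and -1.58. By TPM, the length-scaled share of the library, *Pck1* ranked between 80 and 144 among 36144 gene symbols in the controls and between 316 and 424 in Cebpa_ASKO. The mRNA therefore remained among the more abundant ones of the tissue. For comparison, *Adipoq*, which encodes adiponectin, was at 13.2% of control in CPM and the 7 adipocyte markers together at 43.6%.

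The mitochondrial paralog of *Pck1*, *Pck2*, had 28.5, 34.4 and 34.4 CPM in the controls and 37.4, 36.8 and 36.3 CPM in Cebpa_ASKO. The groups did not overlap, but the difference of 0.18 on the log2 scale was not called (edgeR, adjusted p = 0.362). Of the TPM of both genes, *Pck1* held 98.8%, 97.9% and 98.5% in the controls and 95.4%, 92.7% and 94.7% in Cebpa_ASKO. The cytosolic form was thus by far the more abundant in every library, with a share that did not overlap between the genotypes. Within the *Pck1* gene, the full-length coding transcript, Pck1-201, carried 95.3% to 96.4% of the TPM in the controls and 96.8%, 96.7% and 88.2% in Cebpa_ASKO. The low value of Cebpa_ASKO 3 stood beside 6.63% for a transcript with a retained intron, Pck1-202, which was between 1.83% and 2.76% in the other 5 libraries.

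*Pcx* spans chr19:4510472-4621752 on the plus strand. Its CPM was 1366, 901 and 2140 in Cebpa_fl/fl and 487, 418 and 559 in Cebpa_ASKO. The controls differed 2.37-fold between the highest and the lowest library, and still none reached down to the Cebpa_ASKO range. The means were 1469 ± 626 and 488 ± 70.4 CPM (SD, n = 3 each), and the log2 fold change was -1.59 with a 95% interval from -2.36 to -0.82 (edgeR, adjusted p = 0.0409). This call was near the threshold. Only 1 of the 6 fits that left out a library kept it, that without Cebpa_fl/fl 2 (log2 fold change -1.85, edgeR adjusted p = 0.0106), where 5.65% of all genes were called. Without each of the others the adjusted p was between 0.0575 and 0.167, with fold changes between -1.71 and -1.22. DESeq2 gave *Pcx* an adjusted p of 7.61e-06. *Lrfn4*, a gene that overlaps *Pcx*, was at 2.17 to 5.21 TPM, against 139 to 672 TPM for *Pcx*.

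The 2 main start sites of *Pcx* lie 83874 bases apart, and the transcripts from them differed in how much of the control level remained. Pcx-201 and Pcx-204 start at the distal site and Pcx-202 at the proximal one. Pcx-202 and Pcx-204 have the same coding exons, with a coding length of 3534 bases, and differ in their untranslated ends. The sequences upstream of both starts are shown because transcripts from each were quantified, and that of *Pck1* because it is the other gene that fell. Each is the 250 bases before the RefSeq start on the plus strand of GRCm38.p6, 5′ to 3′, at chr2:173152823-173153072 for *Pck1*, chr19:4510222-4510471 for distal *Pcx* and chr19:4594069-4594318 for proximal *Pcx*. Capitals mark the only match to a motif that was searched for.
Pck1: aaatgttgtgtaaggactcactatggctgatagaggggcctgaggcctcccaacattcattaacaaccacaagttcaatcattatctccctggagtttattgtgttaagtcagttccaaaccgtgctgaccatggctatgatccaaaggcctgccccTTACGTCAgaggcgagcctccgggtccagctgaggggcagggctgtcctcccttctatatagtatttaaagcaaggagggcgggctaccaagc
Pcx distal: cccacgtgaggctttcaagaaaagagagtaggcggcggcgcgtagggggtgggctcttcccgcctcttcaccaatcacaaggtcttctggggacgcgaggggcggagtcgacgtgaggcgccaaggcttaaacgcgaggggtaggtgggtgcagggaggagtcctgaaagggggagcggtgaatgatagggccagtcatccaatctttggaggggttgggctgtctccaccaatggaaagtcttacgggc
Pcx proximal: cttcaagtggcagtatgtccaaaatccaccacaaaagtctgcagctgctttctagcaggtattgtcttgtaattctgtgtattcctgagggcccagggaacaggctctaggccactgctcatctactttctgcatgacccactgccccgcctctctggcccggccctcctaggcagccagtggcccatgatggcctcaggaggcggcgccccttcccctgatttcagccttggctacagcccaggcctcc

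The motif in capitals, TTACGTCA, is the form of the cyclic AMP response element known from the *Pck1* promoter, and it begins 93 bases before the start site. It was found on either strand in 0.499% of 32851 promoter windows of 300 bases (250 before and 50 after a start), and in no other window of the 10 genes. Of the 10 genes, 9 had RefSeq windows, 13 in all. The C/EBP-type motif TTGCNNAA was in 10.8% of all windows and in 1 of the 13, where *Gpd2* has it 86 bases before its upstream start. Gpd2-207, the transcript from that start, held at most 0.658% of the TPM of *Gpd2* in any library. Gpd2-201, from the other start, held between 97.4% and 100%, and the window of that start had no match. The palindrome TGACGTCA (in 1.79% of all windows) and a direct repeat of AGGTCA with 1 base between (0.0396%) were in none of the 13. The letters were matched exactly, so these counts describe the windows and not binding. The upstream bases had a GC content of 50.8% for *Pck1*, 60.8% for distal *Pcx* and 58.0% for proximal *Pcx*, against a median of 52.4% over all promoters.

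The distal *Pcx* transcripts together had 228, 231 and 329 TPM in the controls and 122, 122 and 147 TPM in Cebpa_ASKO. The proximal transcript had 162, 58.5 and 326 TPM in the controls and 18.2, 15.2 and 41.4 TPM in Cebpa_ASKO. Neither overlapped between the genotypes, as was the case for 20.1% of transcripts with a mean TPM of at least 1. The distal level in Cebpa_ASKO was 49.6% of control (46.4% to 56.8% with 1 library left out), and the proximal level was 13.7% (9.14% to 22.6%). Between the highest and the lowest control, the distal transcripts differed 1.44-fold and the proximal one 5.57-fold. The proximal transcript made up 41.6%, 20.3% and 49.8% of both in the controls and 12.9%, 11.1% and 22% in Cebpa_ASKO. These shares overlap, because Cebpa_fl/fl 2 was below Cebpa_ASKO 3, and no test was made of them. Only 97 exonic bases of Pcx-202 are in neither distal transcript, against 3928 that it shares with Pcx-204, so kallisto's division of reads between them rests on short stretches.

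**Figure D2:**
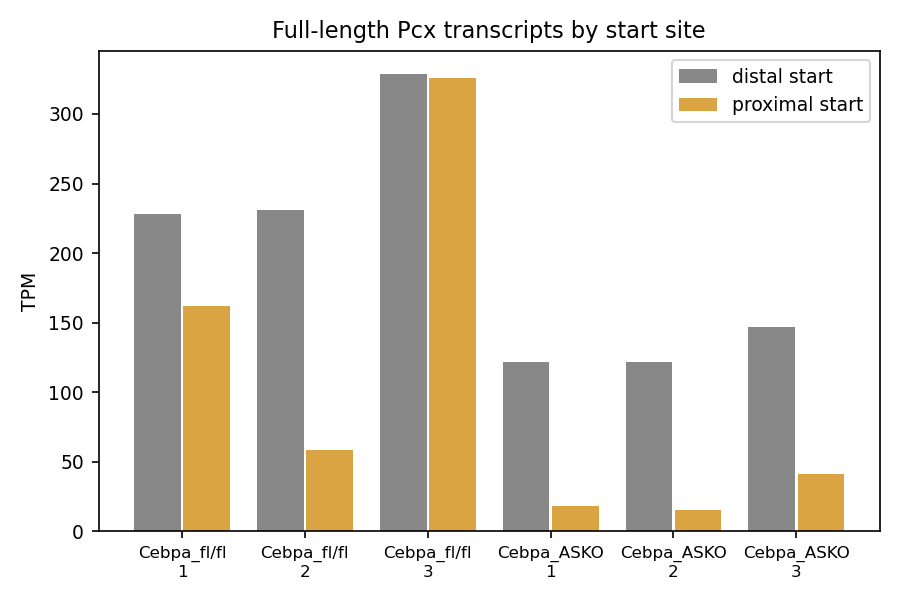
TPM of the full-length *Pcx* transcripts from the distal start (grey) and from the proximal start (yellow) in each of the 6 libraries, 1 bar per library. The proximal bar reaches 326 TPM in Cebpa_fl/fl 3 and 58.5 in Cebpa_fl/fl 2, and is at most 41.4 in Cebpa_ASKO.

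*Gpd1* and *Gk*, whose enzymes make glycerol 3-phosphate itself, had positive fold changes that were not called. *Gpd1* (chr15:99717515-99725005), the cytosolic dehydrogenase that makes it from the glycolytic intermediate dihydroxyacetone phosphate, had 1966, 662 and 1649 CPM in Cebpa_fl/fl and 2910, 2699 and 1929 CPM in Cebpa_ASKO. The top control was just above the lowest Cebpa_ASKO library, and the log2 fold change of 0.82, with a 95% interval from -0.15 to 1.79, was not called (edgeR, adjusted p = 0.331). In TPM the groups did not overlap, with 820, 310 and 740 against 1222, 1298 and 948. *Gpd1* was the most abundant of the 10 genes per length in Cebpa_ASKO, with 1156 ± 184 TPM, while *Pck1*, at 1047 ± 126 TPM, was so in the controls (SD, n = 3 each).

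*Gpd2* (chr2:57237635-57370719) encodes the mitochondrial dehydrogenase that oxidises glycerol 3-phosphate and, with GPD1, forms a shuttle for reducing equivalents. It had 221, 68.5 and 239 CPM in the controls and 456, 409 and 304 CPM in Cebpa_ASKO. All Cebpa_ASKO libraries were above all controls, but the controls spread 3.49-fold. The log2 fold change was 1.14 with a 95% interval from 0.07 to 2.21, and it was not called (edgeR, adjusted p = 0.223, exact permutation p = 0.1). *Gpd2* held 5.13%, 4.55% and 6.61% of the TPM of *Gpd1*, *Gpd1l* and *Gpd2* in the controls and 7.06%, 6.8% and 7.08% in Cebpa_ASKO, without overlap. *Gpd1l*, the close relative of *Gpd1*, fell from 60.5, 62.3 and 60.5 CPM to 48.2, 48.6 and 43.7 CPM, a small log2 fold change of -0.38 (edgeR, adjusted p = 0.0397).

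*Gk* (chrX:85701937-85776819) had 37.3, 9.56 and 15.4 CPM in the controls and 38.6, 37.1 and 29.2 CPM in Cebpa_ASKO. Cebpa_fl/fl 1 lay within the Cebpa_ASKO range and the other controls lay below it. The log2 fold change of 0.75, with a 95% interval from -0.36 to 1.86, was not called (edgeR, adjusted p = 0.442). Without Cebpa_fl/fl 1 it was 1.49 and was called (edgeR, adjusted p = 0.039), and without Cebpa_fl/fl 2 it was 0.39. The *Gk* signal was divided among 8 transcripts, none above 33.7% of the TPM of the gene in any library, and its per-length level was 8.29 ± 6.17 TPM in the controls and 14.6 ± 1.37 TPM in Cebpa_ASKO (SD, n = 3 each).

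Within a library, *Pck1* was lower relative to the other enzymes of the glycerol backbone. The ratio of *Pck1* to *Gpd1* in TPM was 1.38, 2.91 and 1.5 in the controls and 0.296, 0.202 and 0.392 in Cebpa_ASKO. *Pck1* thus exceeded *Gpd1* in every control and was below it in every Cebpa_ASKO library. The ratio of *Pck1* to *Gk* was 73.8, 247 and 187 against 23.2, 17.4 and 28.6, again without overlap. That of *Gpd1* to *Gk*, at 53.6, 84.8 and 125 against 78.4, 86.1 and 72.9, overlapped. The ratio of *Pcx* to *Pck1*, both of which fell, overlapped between the genotypes, with 0.353, 0.323 and 0.605 in the controls and 0.39, 0.528 and 0.514 in Cebpa_ASKO. These ratios follow from the levels above and were not tested.

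**Figure D3:**
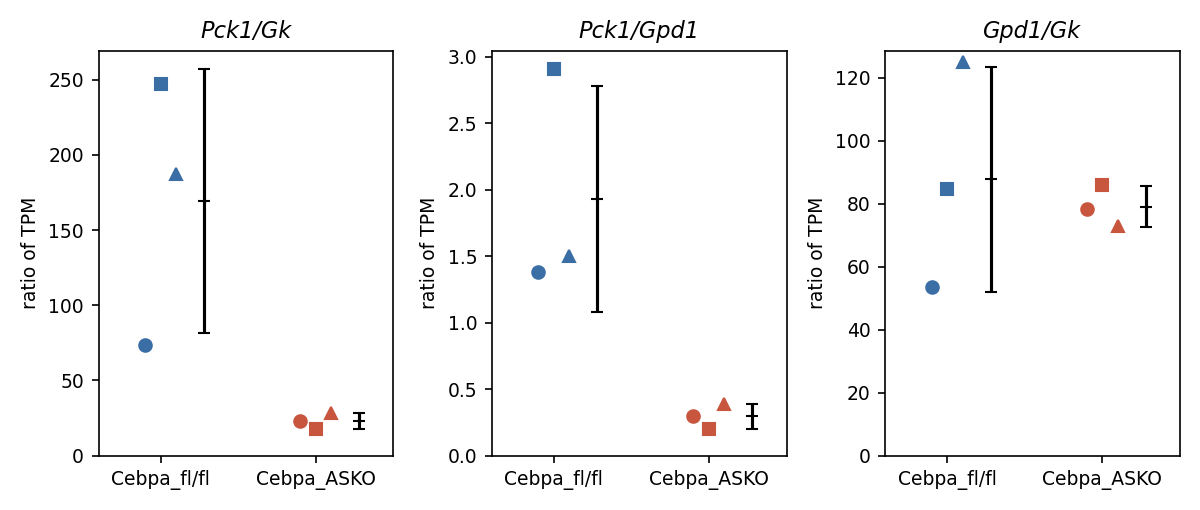
Ratios of TPM within each library for *Pck1* to *Gk*, *Pck1* to *Gpd1* and *Gpd1* to *Gk*, with circles, squares and triangles for replicates 1, 2 and 3, and the mean with the SD beside them (n = 3 per genotype). The 2 ratios that hold *Pck1* do not overlap between the genotypes, and the ratio of *Gpd1* to *Gk* does.

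None of the glycerol channels measured was called. *Aqp7* (chr4:41033074-41048139), the main aquaglyceroporin of adipocytes, had 63.3, 65.7 and 74.5 CPM in the controls and 67.4, 54.4 and 46.3 CPM in Cebpa_ASKO. The groups overlapped through Cebpa_ASKO 1, and the log2 fold change of -0.28, with a 95% interval from -0.63 to 0.08, was not called (edgeR, adjusted p = 0.374). This interval leaves out a fall as large as that of *Pck1*. The neighbouring *Aqp3* (chr4:41092722-41098183) lies 44583 bases from *Aqp7* and encodes a channel found largely in epithelia. *Aqp3* was among the low genes, with 2.32, 0.487 and 1.48 CPM against 0.602, 0.536 and 3.12 CPM. Its interval, from -1.95 to 1.97 on the log2 scale, allows a large difference in either direction, and the sign of its estimate changed with the processing. *Aqp7* held between 86.4% and 93.4% of the TPM of *Aqp3*, *Aqp7*, *Aqp9* and *Aqp11* in every library. Of the other channels, *Aqp9* was between 0.853 and 1.9 CPM (log2 fold change -0.15, edgeR adjusted p = 0.875), and *Aqp11* had 3.21, 2.44 and 4.3 CPM against 2.38, 2.25 and 1.91 CPM (-0.61, edgeR adjusted p = 0.266).

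Of the kinases that hold pyruvate dehydrogenase inactive, *Pdk4* and *Pdk2* had a mean CPM above control, and neither was called. *Pdk4* (chr6:5483351-5496309), the isoform known to rise in fasting and when fatty acids are burned, had 379, 93.8 and 159 CPM in the controls and 529, 270 and 509 CPM in Cebpa_ASKO. Cebpa_fl/fl 1 was above Cebpa_ASKO 2, so the groups overlapped, and the log2 fold change of 1.05 had a 95% interval from -0.20 to 2.30 (edgeR, adjusted p = 0.334). *Pdk4* is also expressed in skeletal muscle, whose 10 markers summed to 3049, 5584 and 1984 CPM in Cebpa_ASKO libraries 1, 2 and 3. With the muscle share as a covariate, the log2 fold change of *Pdk4* was 3.13 and was not called, and the part of muscle in its level was not tested.

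*Pdk2* (chr11:95026258-95041354), the widely expressed isoform, had 111, 85.9 and 97.1 CPM in the controls and 132, 115 and 107 CPM in Cebpa_ASKO. Only Cebpa_fl/fl 1 and Cebpa_ASKO 3 overlapped, and the log2 fold change of 0.27, with a 95% interval from -0.04 to 0.57, was not called (edgeR, adjusted p = 0.318). In TPM the groups did not overlap, with 60.9, 52.5 and 56.8 against 72.5, 72.1 and 69.8. The TPM of *Pdk1* to *Pdk4* summed to 226, 114 and 156 in the controls and 278, 201 and 316 in Cebpa_ASKO, overlapping. *Pdk4* held 57.8%, 31.3% and 37.4% of this sum in the controls and 65.2%, 52.4% and 67.4% in Cebpa_ASKO. *Pdk1*, at 13%, 18% and 23.6% against 6.7%, 9.55% and 8.71%, was the isoform whose share was lower in every Cebpa_ASKO library, though its own level was not called (log2 fold change -0.37, edgeR adjusted p = 0.457). *Pdk3* was at 6.19 to 8.42 CPM over all libraries (-0.07, edgeR adjusted p = 0.89).

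*Slc25a1* (chr16:17925223-17928219), the citrate carrier, had 707, 350 and 1107 CPM in the controls and 452, 384 and 398 CPM in Cebpa_ASKO. The Cebpa_ASKO libraries lay close together and inside the range of the controls. The log2 fold change was -0.81 with a 95% interval from -1.72 to 0.10 (edgeR, adjusted p = 0.305). Without Cebpa_fl/fl 2 it was -1.15 and was called (edgeR, adjusted p = 0.032). Within the gene, a transcript with a retained intron, Slc25a1-202, made up 5.87%, 5.43% and 4.87% of the TPM in the controls and 10.1%, 9.51% and 11.1% in Cebpa_ASKO. These shares did not overlap, as for 13.1% of the transcripts of genes with several. The level of Slc25a1-202 itself overlapped, with 32.5, 16.8 and 45.1 TPM against 37, 33.7 and 42.3 TPM. The level of the main coding transcript, Slc25a1-201, overlapped as well, with 511, 285 and 861 against 323, 314 and 330 TPM.

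The controls differed among themselves for most of these genes. Cebpa_fl/fl 2 had the lowest control CPM for 9 of the 10, all but *Aqp7*, whereas it was lowest for 37.2% of all genes tested. The highest control exceeded the lowest 4.75-fold for *Aqp3*, 4.04-fold for *Pdk4*, 3.9-fold for *Gk* and 3.16-fold for *Slc25a1*, and only 1.41-fold for *Pck1*, 1.3-fold for *Pdk2* and 1.18-fold for *Aqp7*. The median over all genes was 1.3-fold in the controls and 1.24-fold in Cebpa_ASKO, and 7 of the 10 genes spread more widely in the controls than in Cebpa_ASKO. Gene by gene, 2 orders of the controls recurred. *Pcx*, *Slc25a1* and *Gpd2* were highest in Cebpa_fl/fl 3 and lowest in Cebpa_fl/fl 2, like *Acly* (1685, 208 and 3046 CPM) and *Me1* (1249, 478 and 2511 CPM), the cytosolic enzymes that make acetyl-CoA from citrate and NADPH from malate. *Pck1*, *Gk*, *Gpd1*, *Aqp3*, *Pdk2* and *Pdk4* were highest in Cebpa_fl/fl 1 and lowest in Cebpa_fl/fl 2, like *Ucp1*, the uncoupling protein of thermogenic fat (733, 19.4 and 112 CPM), and so was the sum of 5 brown and beige markers (1252, 138 and 369 CPM). In Cebpa_ASKO that sum was 1399, 1060 and 721 CPM, overlapping with the controls, with 0 of the 5 called by edgeR (1 lower and 2 higher at an unadjusted p below 0.05, 1 lower by DESeq2). The 2 orders of the controls go by rank alone. *Pck1* and *Pdk2* spread only 1.41-fold and 1.3-fold, far less than *Ucp1*, and *Aqp3* was among the low genes. How many of all genes share either order is not given here. What set these libraries apart was not tested.

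Per length, the order of the genes differed between the genotypes. In the controls *Pck1* led, followed by *Gpd1*, *Slc25a1* and *Pcx*, whose ranges overlapped (623 ± 274, 596 ± 311 and 454 ± 196 TPM), and *Pck1* itself overlapped with *Slc25a1*. *Pdk4* and *Pdk2* overlapped next (74.8 ± 49.6 and 56.7 ± 4.23 TPM), then *Aqp7* and *Gpd2* (40.2 ± 5.46 and 38.2 ± 19.9 TPM), with *Gk* and *Aqp3* (1.52 ± 1.03 TPM) at the bottom. In Cebpa_ASKO *Gpd1* led clear of the rest, *Slc25a1* and *Pck1* overlapped (366 ± 12.4 and 332 ± 60.2 TPM), and so did *Pdk4* and *Pcx* (166 ± 55.2 and 157 ± 29.5 TPM). *Gpd2* (87.7 ± 12.5 TPM) stood above *Pdk2* (71.4 ± 1.46 TPM) in each Cebpa_ASKO library and below it in each control (SD, n = 3 for each value). *Aqp7*, at 32.7 ± 3.64 TPM, stayed above *Gk* in every library.

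Of 40 other genes of these pathways, all were tested, and 4 fell and 4 rose, or 20%, beside 5.23% of all genes. The median log2 fold change of the 40 was 0.02, as it was over all genes. Among 10 genes of glycerol and glycerol 3-phosphate metabolism, 2 fell, *Gpd1l* and *Gpat3*, and 0 rose by edgeR. At an unadjusted p below 0.05, and likewise by DESeq2, 4 were lower and 0 higher. A negative fold change was seen for 8 of the 10, with a median of -0.29. *Gpat3*, an acyltransferase that puts the first fatty acid on glycerol 3-phosphate, went from 80.8, 128 and 107 CPM to 9.79, 10.2 and 5.9 CPM (log2 fold change -3.61, edgeR adjusted p = 0.00113). Its 95% interval, from -4.26 to -2.96, does not meet that of *Pck1*. *Gpat3* was called in 18 of the 19 settings tried, and *Gpd1l* in 4.

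Among 12 genes of pyruvate entry and dehydrogenation, 1 rose and 0 fell by edgeR (1 lower at an unadjusted p below 0.05 and by DESeq2). The gene that rose was *Pdp1*, a phosphatase that reactivates pyruvate dehydrogenase and so opposes the PDK kinases, with 12.7, 15.9 and 12.3 CPM in the controls and 27.5, 25.5 and 21.1 CPM in Cebpa_ASKO (log2 fold change 0.85, edgeR adjusted p = 0.0252, called in 11 of 19 settings). With the muscle share as a covariate, the log2 fold change of *Pdp1* was 0.33 and was not called, and the part of muscle in its level was not tested. *Pdp2*, the relative of *Pdp1*, was not called (-0.22, edgeR adjusted p = 0.381). The subunits of the mitochondrial pyruvate carrier were not called either. *Mpc1* overlapped, with 506, 221 and 544 CPM against 690, 498 and 389 CPM (0.31, edgeR adjusted p = 0.723). *Mpc2* did not overlap, with 251, 137 and 274 CPM against 129, 114 and 110 CPM (-0.90, edgeR adjusted p = 0.107).

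Among 5 genes of pyruvate and lactate exchange, *Slc16a7*, a monocarboxylate transporter with a high affinity for pyruvate, fell from 31.4, 36 and 36.7 CPM to 20.6, 18.5 and 18.1 CPM (log2 fold change -0.86, edgeR adjusted p = 0.00504). The other 4 had positive fold changes that edgeR did not call. Of the 5, 1 was lower and 2 were higher at an unadjusted p below 0.05, and likewise by DESeq2. The group of 13 genes of the citrate, malate and aspartate shuttles held 3 that rose and 1 that fell by edgeR. In this group 3 were lower and 3 higher at an unadjusted p below 0.05, and the same numbers by DESeq2. *Got1* and *Got2*, the cytosolic and mitochondrial aspartate aminotransferases, and *Slc25a12*, an aspartate and glutamate carrier, rose together by 0.88, 0.47 and 0.53 on the log2 scale (edgeR, adjusted p = 0.028, 0.0212 and 0.018). *Got1*, for example, had 15.6, 10.7 and 15.6 CPM in the controls and 26, 26.2 and 25.2 CPM in Cebpa_ASKO. *Slc25a10*, the dicarboxylate carrier that exchanges malate and succinate for phosphate, fell from 349, 242 and 523 CPM to 103, 124 and 89.7 CPM (log2 fold change -1.81, edgeR adjusted p = 0.0184). *Me1*, at 506, 477 and 406 CPM in Cebpa_ASKO, had a log2 fold change of -1.61 that was not called (edgeR, adjusted p = 0.165). DESeq2 called *Me1* lower (adjusted p = 0.00987), as did edgeR without Cebpa_fl/fl 2 (-2.03, adjusted p = 0.0174). *Acly*, at 2492, 2288 and 2100 CPM in Cebpa_ASKO, had a log2 fold change of 0.48 that was not called (edgeR, adjusted p = 0.811). Of the called genes of these groups, *Slc16a7* was called in 13, *Slc25a10* in 12, *Got1* and *Got2* in 11 and *Slc25a12* in 8 of the 19 settings. The spread of the controls for *Acly* was wider than this difference.

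**Figure D4:**
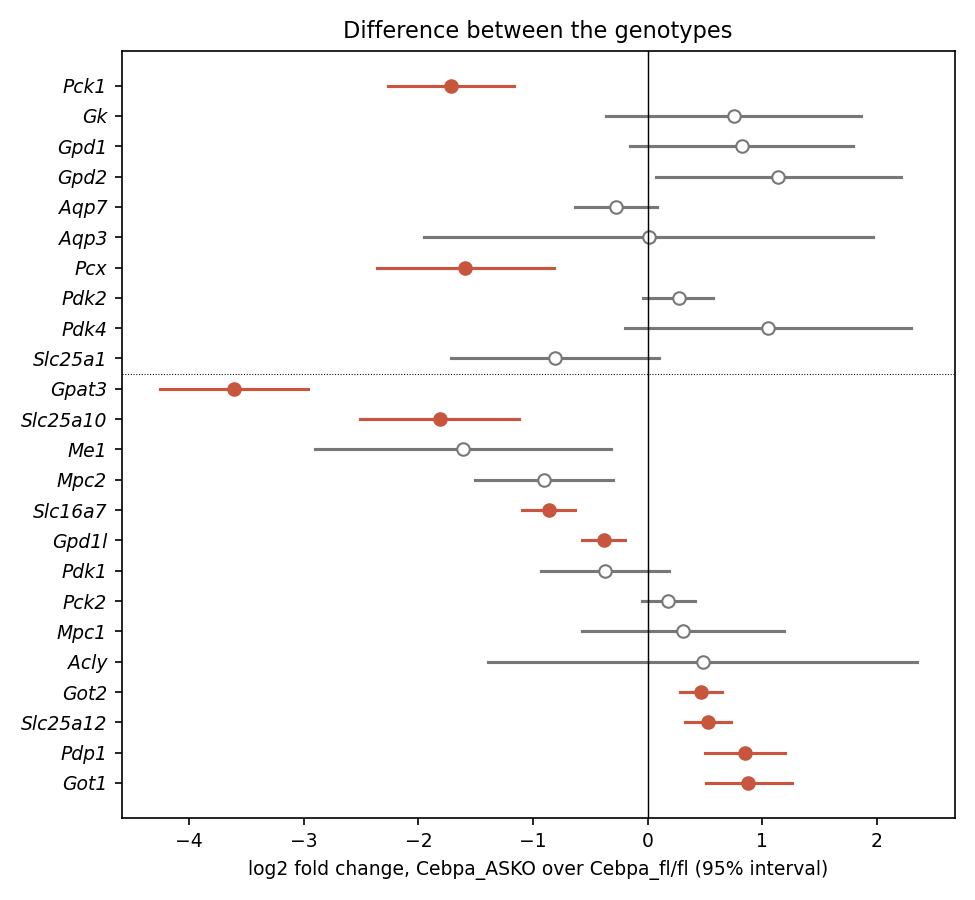
Log2 fold change of Cebpa_ASKO over Cebpa_fl/fl with its 95% interval, from edgeR, for the 10 genes (above the dotted line) and 14 other genes of the pathways (below it). Filled red points are called at an adjusted p below 0.05 and open grey points are not, and *Pck1* at -1.72 and *Pcx* at -1.59 are the called ones of the 10.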

How the data were processed

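RNA-seq of whole iWAT from 6 mice was analysed, 3 Cebpa_fl/fl and 3 Cebpa_ASKO, grouped by the sample titles. The 10 genes, the pathway and marker lists and the rule for named genes (the 10, every called pathway gene and 12 more) were chosen with earlier results of these data known. The libraries were paired-end and poly-A selected, and whether they keep strand is not given in the sources used here. The authors quantified transcripts with kallisto 0.44.0 and deposited, for each transcript, an estimated count and TPM, with the effective length, and TPM summed per gene symbol. The submitters' processing notes name GRCm38.p6, beside the human build GRCh38.p12, and the transcript annotation is not given in the sources used here.

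With the GENCODE M21 annotation (GRCm38), 116816 of 118489 transcripts (98.6%) could be assigned to genes, and the deposited estimated counts were summed per symbol and rounded. For the 10 genes the sum covered 100.0% of the TPM of the authors' table. Values of single transcripts are less certain than those of genes, since kallisto has to split shared reads. The main test was edgeR 4.0.16 (quasi-likelihood, TMM, default count filter, Benjamini-Hochberg over all genes tested, called at an adjusted p below 0.05) in R 4.3.3. A standard error was taken from the F statistic, and 95% intervals from its degrees of freedom. Levels between genes were compared only in TPM. Permutation tests were exact and two-sided over 20 arrangements (scipy 1.17.1), and tables were handled in Python 3.11.15 with pandas 2.3.3. Promoter windows came from RefSeq (GRCm38.p6), and *Gpd1* had no window in that table. The procedure was tested on simulated counts with known changes.

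The alternatives were DESeq2 1.42.0 (the tool named in the study's methods), total-count scaling, DESeq2 size factors used within edgeR, looser and stricter count filters (at least 1 count, or 10 in every library), a length offset, limma 3.58.1 on log2(TPM + 1) or log2(TPM + 0.1) with a minimum TPM of 1 in 3 libraries, the former without a filter, a fold threshold, removal of each library in turn, a replicate block, and a covariate for the share of skeletal muscle counts. Replicates of a genotype differed by more than sampling noise and were used as separate samples, and p-values measure the spread between these mice.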

Additional observations from a re-analysis of the deposited data

How the results depend on the processing

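*Pck1* kept its direction and its call in 17 of 18 alternatives, and *Pcx* in 10 of 18. The fold threshold, counted among these, reuses the main fit and could not change either call. With the skeletal muscle share as a covariate, which does not overlap between the genotypes, so that the fit cannot separate them, 0 genes were called by edgeR (872 at an unadjusted p below 0.05), with 0 of the 10, 0 pathway genes lower and 0 higher. *Pck1* was then at -0.82, *Pcx* at -0.51 and *Cebpa* at -3.97 (edgeR, adjusted p = 0.148). The replicate numbers did not pair the libraries (correlations of their deviations 0.116, -0.0258 and -0.278), and the replicate block gave 370 genes, 1 of the 10 lower (*Pck1*, while *Pcx*, at -1.51, was not called, edgeR adjusted p = 0.0591), and 2 pathway genes lower and 0 higher.

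The 840 genes called became 1796 with DESeq2, of which 37% were higher against 26.5%, 359 with limma without a filter, 495 with a log2 fold change of at least 1, and 311 to 922 with a library left out, fewest without Cebpa_ASKO 1 and most without Cebpa_fl/fl 2. Of the 10, limma without a filter called 1 lower (*Pck1*, while *Pcx*, at -1.46, was not called, adjusted p = 0.123), and leaving out a library gave 1 to 3 lower and 0 to 1 higher. Pathway genes called lower were 9 with DESeq2, 2 with limma at either pseudocount, 1 without its filter, 2 with the fold threshold and 2 to 7 with a library left out. Those called higher were 1 with limma without a filter, 0 with the fold threshold and 0 to 5 with a library left out. The remaining alternatives kept these counts within 1.5-fold.

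*Aqp3* had its sign reversed in 9 of 18 alternatives: -0.01 with DESeq2, -0.00328 with its size factors, -0.44 with the length offset, -0.25 and -0.48 with limma at pseudocounts of 1 and 0.1, -0.25 without its filter, -0.19 with the replicate block, -0.41 without Cebpa_fl/fl 2 and -1.34 without Cebpa_ASKO 3. With a library left out it ranged from -1.34 to 0.54. No other gene of the 10 changed sign. The proximal *Pcx* share from estimated counts was 37% in the controls and 15.3% in Cebpa_ASKO. With 3 mice per genotype, the intervals of *Gk*, *Gpd1*, *Gpd2*, *Pdk4* and *Slc25a1* are wide, and a missed call does not show equal levels. The causes of these changes were not tested.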

Other observations

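Other marker sums also differed between the genotypes or between single libraries. The summed CPM of 5 hepatocyte markers was 40.5, 48.2 and 44.3 in the controls and 19.3, 31.4 and 3.82 in Cebpa_ASKO. These markers did not move together. *Alb* was called lower by edgeR, as was *Serpina1a*, which was at most 0.735 CPM. *Fgb* overlapped, with 14.9, 14.9 and 11.8 against 13.8, 25.9 and 2.76 CPM. The summed CPM of 4 endothelial markers was 250, 245 and 306 against 179, 163 and 237, and that of 5 erythroid markers 716, 1051 and 567 against 496, 409 and 362, both without overlap. The 6 lymphocyte markers summed to 246 CPM in Cebpa_fl/fl 1 and to between 3.73 and 7.71 in the other libraries. Macrophage markers (294 to 711 CPM over all libraries) and fibroblast and progenitor markers (2694 to 5096 CPM) overlapped between the genotypes. In Cebpa_fl/fl 2, where 9 of the 10 genes were at their lowest control level, both of these sums were at their highest. The adipocyte (21171 CPM), muscle (786), erythroid (1051) and hepatocyte (48.2) sums were also at their highest control level there. The brown and beige (138), epithelial (780) and endothelial (245) sums were at their lowest control level there. What lies behind these differences was not tested.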
